A study of Homo sapiens with 24 samples.

Results

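Gene expression after addition of the PDK1 inhibitor GSK2334470 to the PI3Kα inhibitor BYL719 was examined in HCC1954, a breast cancer cell line that carries a PIK3CA mutation and is insensitive to BYL719. The comparison uses 6 of the 24 Illumina HT-12 arrays of the series, chosen by their labels alone: 3 arrays of HCC1954 cells given both agents for 4 hr (the combination, BYL719 at 1 μM and GSK2334470 at 1 μM) and 3 arrays of HCC1954 cells given BYL719 (1 μM) alone for 4 hr. Both groups therefore carry BYL719, and they differ in GSK2334470. The other HCC1954 groups were DMSO (0.1%) and GSK2334470 (1 μM) alone, with 3 arrays each, and the same 4 treatments were measured in JIMT1, a second PIK3CA-mutant breast cancer line insensitive to BYL719. The replicates are stated to be biological, each group comes from a single established line, and the effect of any agent on it is a population average at a single time.

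PI3Kα makes the membrane lipid PIP3, which brings the kinases PDK1 and AKT together so that PDK1 can phosphorylate the activation loop of AKT. PDK1 also activates other kinases of the AGC family, among them SGK1, SGK3, S6K and RSK, and SGK1 can be active while AKT is not. AKT and SGK1 share substrates: both phosphorylate FOXO transcription factors, which keeps them out of the nucleus, and the TSC complex, a brake on mTORC1. When FOXO factors enter the nucleus they bind DNA at a core motif and activate genes for growth arrest, insulin receptor signaling, autophagy and protein breakdown. The question put to these 6 arrays is what PDK1 inhibition adds to expression under PI3Kα inhibition.

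Levels are given as log2 normalized bead intensity, a relative scale on which a difference of 1 is a 2-fold change, and they are compared between groups and not between genes. The arrays of the groups resembled each other closely. The median raw intensity was 54.5 to 62.4 on the BYL719 arrays and 48.5 to 55.6 on the combination arrays, and over normalized levels the arrays correlated at r from 0.9933 to 0.9938 within the BYL719 group, from 0.9917 to 0.9932 within the combination group and from 0.9899 to 0.992 between them. All 11 luminal markers fixed beforehand, among them KRT8, KRT18, EPCAM and GATA3, were detected on all 6 arrays, as were the 6 basal markers that had a probe. Of 17 markers of other cell types with a probe, 7 were detected on none of the 6 arrays (PTPRC, CD3E, COL3A1, LUM, PDGFRB, MYH11 and HBB). Another 7 were detected on all 6 (CD68, PECAM1, VWF, CDH5, COL1A1, ACTA2 and ALB), so detection alone does not tell cell types apart here. The summed linear level of the basal markers was 6160 to 6690 on the BYL719 arrays and 7150 to 7480 on the combination arrays, none of these 6 markers was called, and their part in the results was not tested. The median log2 fold change was 0 over the 22 measured housekeeping genes and -0.01 over the 33 ribosomal protein genes.

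Adding GSK2334470 to BYL719 raised 171 genes and lowered 160 genes of 12109 tested (limma, Benjamini-Hochberg adjusted p below 0.05), which is 1.41% higher, 1.32% lower and 2.73% in either direction. The rises were led by the transcriptional repressor PRDM1, the PI3K inhibitor protein PIK3IP1, the FOXO-responsive gene DEPP1, the cAMP phosphodiesterase PDE4B and the insulin receptor substrate IRS2, and the falls by the ATP and UTP receptor P2RY2, the vasoconstrictor peptide EDN2 and the transcription factor MESP1. The changes were modest in size: 11 genes rose and 4 fell by 2-fold or more, the log2 fold changes ran from -1.56 to 1.26, and the median size among the 331 called genes was 0.53 beside a median standard error of 0.13 over all genes. The 3 combination arrays lay above all 3 BYL719 arrays for 170 of the 171 genes that rose and below them for all 160 that fell. Over all genes tested, 9.01% had combination arrays wholly above and 11.1% wholly below, so separation of the arrays is by itself common. Among the genes that rose 8 were not detected on any BYL719 array, and among those that fell 10 were not detected on any combination array, so for these at most a bound on the fold is available. For 1 of the 8, CD320, detected in neither group, there is no bound.

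The count of 331 changed with the normalization and with the arrays fitted. It was 30 with median scaling in place of quantile normalization, 46 when only these 6 arrays were fitted, and 198 to 228 when any 1 of the 6 arrays was left out.

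A first set of genes is presented with sequence, because the DNA motif that FOXO factors bind can be looked for in their promoters. RefSeq promoter windows (GRCh38.p14, 250 bases before to 50 bases after an annotated start) were at hand for 132 of the 171 genes that rose and for 122 of the 160 that fell, with several windows for a gene that has several starts. The motif GTAAACA, on either strand (its reverse complement is TGTTTAC), was in at least 1 window of 15 of these 132 genes (11.4%), in 1 of the 122 genes that fell (0.82%, EXOSC2), and in 352 of the 9716 genes tested that have a window (3.62%). Counted by window, it was in 15 of 208 windows of genes that rose (7.21%), 1 of 167 of genes that fell (0.599%) and 380 of 14121 of all genes tested (2.69%). Among genes that rose outside the list of FOXO-activated targets used here, 10 of 117 with a window had it (8.55%). These shares are a description without a test, and a match does not show that a factor binds there. The 15 genes were ARID5B, CENPQ, COQ8A, DEPP1, FCHO2, GDF15, GRAMD1C, HBP1, KLHDC2, PIK3IP1, RNF39, SERTAD4-AS1, TCP11L2, TXNIP and YPEL3, of which 5 (ARID5B, HBP1, PIK3IP1, TXNIP and YPEL3) are also in the list of FOXO-activated targets used here. The windows of the 2 largest rises among them, DEPP1 and PIK3IP1, and of 2 list members with the motif upstream of the start, HBP1 and TXNIP, are shown 5′ to 3′ on the strand of the gene, in lower case with the motif in capitals.
DEPP1, chr10:44978760-44979059, minus strand: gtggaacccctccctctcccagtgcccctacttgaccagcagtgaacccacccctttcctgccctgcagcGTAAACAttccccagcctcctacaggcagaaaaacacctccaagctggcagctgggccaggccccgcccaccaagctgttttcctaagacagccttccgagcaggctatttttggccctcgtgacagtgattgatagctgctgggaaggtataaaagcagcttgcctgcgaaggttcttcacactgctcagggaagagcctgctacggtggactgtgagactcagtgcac
PIK3IP1, chr22:31292439-31292738, minus strand: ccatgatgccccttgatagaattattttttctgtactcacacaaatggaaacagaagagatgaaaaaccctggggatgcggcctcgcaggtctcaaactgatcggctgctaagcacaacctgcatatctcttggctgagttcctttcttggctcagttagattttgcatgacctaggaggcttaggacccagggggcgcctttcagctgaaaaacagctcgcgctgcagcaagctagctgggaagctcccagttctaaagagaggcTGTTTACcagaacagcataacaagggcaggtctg
HBP1, chr7:107168753-107169052, plus strand: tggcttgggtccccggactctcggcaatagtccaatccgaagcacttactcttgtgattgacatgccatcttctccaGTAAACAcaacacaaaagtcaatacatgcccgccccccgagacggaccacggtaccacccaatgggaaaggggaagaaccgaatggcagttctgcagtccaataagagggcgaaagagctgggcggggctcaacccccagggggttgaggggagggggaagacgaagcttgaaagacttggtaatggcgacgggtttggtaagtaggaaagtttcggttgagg
TXNIP, chr1:145996530-145996829, minus strand: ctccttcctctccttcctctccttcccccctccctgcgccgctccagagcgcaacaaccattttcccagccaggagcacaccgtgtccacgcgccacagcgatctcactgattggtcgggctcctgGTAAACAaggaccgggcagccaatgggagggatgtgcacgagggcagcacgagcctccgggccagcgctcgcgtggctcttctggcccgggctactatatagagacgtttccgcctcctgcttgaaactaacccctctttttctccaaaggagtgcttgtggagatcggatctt
With the annotated start site as position 0, the motif begins at position -180 in DEPP1, -173 in HBP1 and -124 in TXNIP, on the strand of the gene, and at position 16, on the opposite strand, in PIK3IP1.

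FOXO-activated targets were the gene group with the most members called. Of 51 listed genes 46 were measured, 19 rose (41.3%), 0 fell and 27 did not pass the test, against 1.41% and 1.32% of all genes tested. The median log2 fold change of the 46 was 0.38, beside -0.01 over all genes, and 42 of the 46 values were above 0 (91.3%, beside 46.5% of all genes). The list was assembled with earlier results of these arrays known, so the count describes these arrays. It was 14 to 16 when any 1 of the 6 arrays was left out, 10 when only these arrays were fitted and 3 with median scaling, while the list's median ranged from 0.35 to 0.41 over the 19 alternatives for which it was computed.

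PIK3IP1, a membrane protein that binds the PI3K catalytic subunit and restrains it, read 7.77, 7.84 and 7.94 on the BYL719 arrays and 9.05, 8.89 and 9.24 on the combination arrays. The groups did not overlap, and the log2 fold change was 1.21 ± 0.20 (SE, adjusted p = 0.0019). Its mean was 6.38 ± 0.39 (SD, n = 3) under DMSO and 6.59 ± 0.10 (SD, n = 3) under GSK2334470 alone, so that the level was highest with both agents.

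IRS2, the adaptor that couples insulin and IGF receptors to PI3K, read 8.03, 8.14 and 8.42 with BYL719 and 9.26, 9.43 and 9.28 with the combination. Every combination array was above every BYL719 array, and the log2 fold change was 1.13 ± 0.14 (SE, adjusted p = 0.00017). CREBRF, a regulator of the CREB3 family of transcription factors, read 7.97, 7.74 and 8.03 with BYL719 and 8.68, 9.1 and 9.1 with the combination, a log2 fold change of 1.05 ± 0.16 (SE, adjusted p = 0.00073). The lowest combination array of CREBRF was the first replicate, and it was still above the BYL719 arrays.

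CCNG2, an atypical cyclin that holds back the cell cycle, read 9.98, 9.56 and 9.94 with BYL719 and 10.94, 10.73 and 10.73 with the combination. Its 3 probes gave log2 fold changes of 0.87, 0.97 and 0.99, and the probe used gave 0.97 ± 0.16 (SE, adjusted p = 0.0015). HBP1, a repressor of cell-cycle genes, read 10.71, 10.52 and 10.66 with BYL719 and 11.63, 11.34 and 11.32 with the combination (log2 fold change 0.80 ± 0.12, SE, adjusted p = 0.00084). BCL6, a transcriptional repressor, read 10.87, 10.83 and 10.91 with BYL719 and 11.38, 11.4 and 11.49 with the combination (0.55 ± 0.08, SE, adjusted p = 6e-04). All 3 genes had non-overlapping groups and kept the call when any 1 of the 6 arrays was left out. With median scaling they lost it (adjusted p = 0.09 for CCNG2, 0.082 for HBP1 and 0.51 for BCL6).

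CITED2, a transcriptional co-regulator that binds CBP and p300, read 9.84, 9.8 and 9.9 with BYL719 and 10.61, 10.55 and 10.6 with the combination, a log2 fold change of 0.74 ± 0.09 (SE, adjusted p = 8.4e-05). ARID5B, a DNA-binding protein that recruits a histone demethylase, rose by 0.70 on the log2 scale (adjusted p = 2e-04), TXNIP, an arrestin-family protein that limits glucose uptake and binds thioredoxin, by 0.65 (adjusted p = 0.0015), and the yippee-family gene YPEL3 by 0.51 (adjusted p = 0.0049). The ubiquitin ligase adaptors KLHL24 (0.87, adjusted p = 0.00052) and FBXO32, also called atrogin-1 (0.42, adjusted p = 0.0027), rose as well. Every one of these genes had 3 combination arrays above 3 BYL719 arrays, and every one lost its call with median scaling.

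Weaker members of the list were called on less secure ground. ERBB3, the HER3 receptor, read 10.18, 9.96 and 10.13 with BYL719 and 10.23, 10.91 and 10.72 with the combination, so the lowest combination array was just above the highest BYL719 array. Its log2 fold change was 0.53 ± 0.14 (SE, adjusted p = 0.049), 2 other probes gave 0.18 and 0.79, and the call was lost without any of 5 arrays, all but combination replicate 1, with adjusted p up to 0.23. Left out singly, any array but combination replicate 3 cost TP53INP1 (0.50, adjusted p up to 0.20) and PDK4 (0.72, up to 0.21) the call, any but BYL719 replicate 2 cost SESN3 (0.54, up to 0.18), and combination replicate 1 or 3 or BYL719 replicate 1 or 2 cost GABARAPL1 (0.45, up to 0.082). PDK4 was not detected on the BYL719 arrays and was detected on 2 combination arrays, where the bound was at least 1.13-fold higher.

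TNFSF10, the death ligand TRAIL, read 11.61, 11.52 and 11.6 with BYL719 and 12.13, 11.87 and 12.06 with the combination. Its groups did not overlap, yet its log2 fold change of 0.45 ± 0.19 (SE) did not pass the test (adjusted p = 0.28). The FOXO genes themselves did not pass, with log2 fold changes of -0.09 ± 0.11 (SE, adjusted p = 0.82) for FOXO1 and 0.04 ± 0.13 (SE, adjusted p = 0.96) for FOXO3. Other textbook FOXO targets that did not pass the test were CDKN1B (0.37, adjusted p = 0.18), BCL2L11 (0.08, adjusted p = 0.88), CDKN1A (-0.05, adjusted p = 0.93) and GADD45A (0.11, adjusted p = 0.62).

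**Figure D1:**
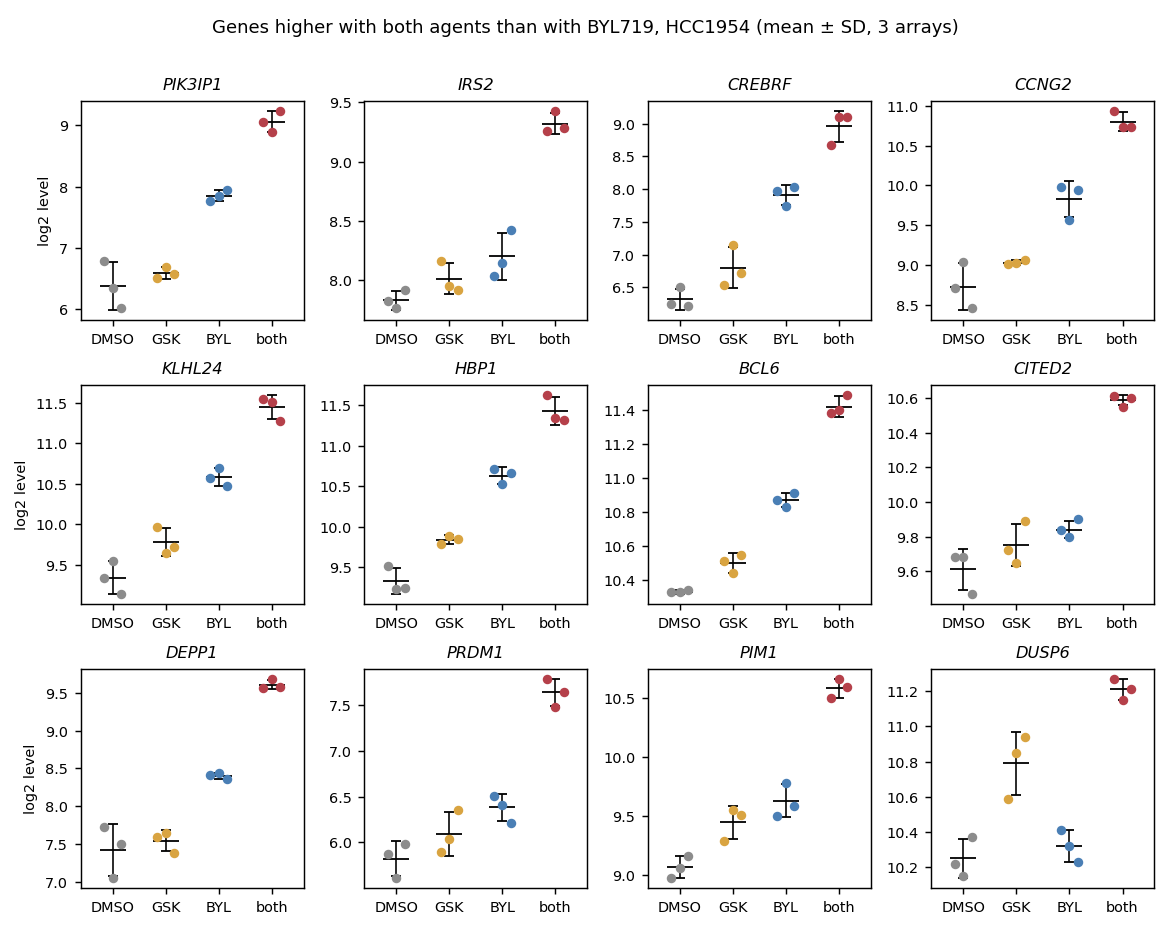
Log2 normalized level (y axis) of 12 genes that rose, on each HCC1954 array under DMSO, GSK2334470 (GSK), BYL719 (BYL) or both agents, with the mean and SD of 3 arrays as bars. In every panel the 3 arrays with both agents lie above the 3 BYL719 arrays, and for PIK3IP1 the means run from 6.38 under DMSO to 7.85 under BYL719 and 9.06 with both agents.

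The PI3K, AKT, SGK, PDK1 and mTOR pathway had 48 of 56 listed genes measured, of which 6 rose (12.5%, beside 1.41% of all genes), 1 fell (2.08%, beside 1.32%) and 41 did not pass the test. Its median log2 fold change was -0.04. SGK1, the kinase that PDK1 activates in parallel with AKT, read 9.34, 9.27 and 9.25 with BYL719 and 9.81, 9.78 and 9.81 with the combination. Its arrays were tight within each group and the log2 fold change was 0.51 ± 0.09 (SE, adjusted p = 0.002), with 0.40 and 0.45 from its 2 other probes. SGK1 was at 9.30 ± 0.16 (SD, n = 3) under DMSO and 9.31 ± 0.10 (SD, n = 3) under GSK2334470 alone. It was the single member called among the 29 measured AGC kinases (3.45%, beside 1.41% of all genes rising). The SGK1 call was lost with median scaling and when only the 6 arrays compared were fitted.

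Besides SGK1 and PIK3IP1, the rises in this pathway were RHEBL1, a GTPase related to the mTORC1 activator RHEB (0.85 ± 0.19, SE, adjusted p = 0.015), the folliculin partner FNIP2 (0.63, adjusted p = 0.039), SESN3, a sestrin that restrains mTORC1, and TSC1, the stabilizing subunit of the TSC complex (0.38, adjusted p = 0.046). PIK3R1, the regulatory subunit of PI3K, read 8.99, 8.85 and 9.02 with BYL719 and 8.42, 8.29 and 8.44 with the combination, and fell by 0.57 on the log2 scale (adjusted p = 0.019). The calls of TSC1 and FNIP2 were lost without any of the 6 arrays (adjusted p up to 0.17 and 0.12), that of PIK3R1 without 4 (combination replicates 1 and 2, BYL719 replicates 1 and 3, up to 0.083) and that of RHEBL1 without 3 (combination replicate 2, BYL719 replicates 1 and 3, up to 0.061). FNIP2 had a second probe at 0.05, and the 2 other TSC1 probes gave 0.24 and -0.11. PDPK1, the gene of PDK1 itself (0.09 ± 0.10, SE, adjusted p = 0.77), SGK3 (0.01 ± 0.16, adjusted p = 0.99), TSC2 (-0.19 ± 0.15, adjusted p = 0.62), MTOR (-0.02 ± 0.15, adjusted p = 0.98) and the SGK1 substrate NDRG1 (-0.08 ± 0.15, adjusted p = 0.89) did not pass, and their groups overlapped.

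Among receptor tyrosine kinases and their adaptors, 4 of 31 measured genes rose (12.9%, beside 1.41% of all genes) and 0 fell, with a median of 0.06. Besides IRS2 and ERBB3 these were LRIG1 and ERRFI1, which both dampen ERBB receptors. LRIG1 read 9.53, 9.59 and 9.72 with BYL719 and 10.16, 10.35 and 10.18 with the combination (0.62 ± 0.11, SE, adjusted p = 0.0043), while a dimmer probe gave 0.29. ERRFI1 rose by 0.47 on the log2 scale (adjusted p = 0.00052), from a mean of 12.06 ± 0.03 (SD, n = 3) to 12.53 ± 0.08 (SD, n = 3), and was at 12.31 ± 0.02 (SD, n = 3) under DMSO.

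ERK pathway output had 5 of 39 measured genes rising (12.8%, beside 1.41% of all genes), 0 falling and a median of 0.20. For BYL719 alone against DMSO, which shares the BYL719 arrays, the list median was -0.13. It was 0.04 for GSK2334470 alone against DMSO and 0.06 for the same addition in JIMT1, beside 0.01 and 0.03 over all genes. DUSP6, the phosphatase that switches off ERK and is induced by it, read 10.41, 10.32 and 10.23 with BYL719 and 11.27, 11.15 and 11.21 with the combination. The log2 fold change was 0.89 ± 0.13 (SE, adjusted p = 0.00052), a second probe gave 1.21, and under GSK2334470 alone DUSP6 was at 10.79 ± 0.18 (SD, n = 3), between the levels under DMSO (10.25 ± 0.11, SD, n = 3) and with both agents. EGR1, an immediate early transcription factor, read 8.66, 9.01 and 8.53 with BYL719 and 9.46, 9.62 and 9.39 with the combination (0.76 ± 0.12, SE, adjusted p = 0.0015). The stress factor ATF3 (0.61, adjusted p = 0.023), the RAS pathway inhibitor SPRED2 (0.48, adjusted p = 0.026) and the phosphatase DUSP5 (0.39, adjusted p = 0.0094) also rose. The calls of ATF3 and SPRED2 were lost without 5 of the 6 arrays (all but BYL719 replicate 2, adjusted p up to 0.11 and 0.14) and that of DUSP5 without combination replicate 2 (0.053). IER2, another immediate early gene, had a value of -0.43 that did not pass (adjusted p = 0.12).

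Cell-cycle inhibitors and antiproliferative factors had 7 of 30 measured genes rising (23.3%, beside 1.41% of all genes), 0 falling and a median of 0.29. They were CCNG2, HBP1, TXNIP, YPEL1 and YPEL3, which are also in the FOXO list, and ERRFI1 and YPEL5 (0.40, adjusted p = 0.0082, lost without combination replicate 1 at 0.059). In genes that drive division there was little to count: 1 of 53 measured G1/S and DNA replication genes fell (1.89%, beside 1.32% of all genes), cyclin E1 (CCNE1, -0.28, adjusted p = 0.035, lost without 5 of the 6 arrays, all but combination replicate 3, up to 0.13), and 0 of 45 G2/M genes passed in either direction, with medians of -0.01 and 0.04. CCND1, cyclin D1, read 13.91, 13.92 and 14.02 with BYL719 and 13.62, 13.91 and 13.91 with the combination, groups that overlap, and its value of -0.14 ± 0.09 (SE) did not pass (adjusted p = 0.56).

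The largest rise of all belonged to a gene outside these lists. PRDM1, the repressor also known as BLIMP1, read 6.51, 6.41 and 6.21 with BYL719 and 7.79, 7.48 and 7.65 with the combination (1.26 ± 0.17, SE, adjusted p = 0.00026). DEPP1, a gene induced by FOXO factors in several cell types, read 8.41, 8.44 and 8.36 with BYL719 and 9.57, 9.69 and 9.58 with the combination (1.21 ± 0.17, SE, adjusted p = 0.00052). Neither gene overlapped between the groups, and neither passed the test for GSK2334470 alone against DMSO (6.09 ± 0.24 against 5.82 ± 0.19 for PRDM1 and 7.54 ± 0.14 against 7.42 ± 0.34 for DEPP1, SD, n = 3).

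PDE4B, which breaks down cAMP, read 6.85, 6.67 and 6.48 with BYL719 and 7.89, 7.6 and 8.02 with the combination (1.17 ± 0.18, SE, adjusted p = 0.00071). RGCC, a cell-cycle regulator induced by complement, read 9.24, 9.21 and 9.23 with BYL719 and 10.36, 10.11 and 10.17 with the combination (0.99 ± 0.13, SE, adjusted p = 0.00031). PIM1, a serine/threonine kinase that shares substrates with AKT and was singled out after its values were seen, read 9.5, 9.78 and 9.59 with BYL719 and 10.5, 10.66 and 10.59 with the combination (0.96 ± 0.09, SE, adjusted p = 2.7e-05), the smallest adjusted p among the genes that rose. The groups of all 3 genes were apart, and each kept its call without any 1 of the 6 arrays.

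The remaining large rises were STON1, an endocytic adaptor (1.15), PRDM8, a PRDM-family repressor (1.06), the prefoldin subunit PFDN2 (1.04), TCP11L2 (1.02), the pantetheinase VNN1 (1.01), YPEL1 (0.99), the iron reductase CYBRD1 (0.98) and the small MAF factor MAFF (0.97), with adjusted p from 0.00011 for YPEL1 to 0.027 for PFDN2. STON1 and TCP11L2 were each detected on 1 of 3 BYL719 arrays and on all combination arrays. PFDN2 was at 6.95 ± 0.13 (SD, n = 3) under DMSO, and the combination against DMSO did not pass the test (0.23, adjusted p = 0.61). PFDN2 read 5.9, 6.51 and 6 with BYL719 and 7.14, 6.74 and 7.64 with the combination, a spread that cost it the call without 4 of the 6 arrays (combination replicates 1 and 3, BYL719 replicates 1 and 3, adjusted p up to 0.14). PRDM8 lost it without combination replicate 1 or BYL719 replicate 3 (up to 0.055), VNN1 without combination replicate 2 or BYL719 replicate 1 (up to 0.056) and MAFF without combination replicate 1 or 3 or BYL719 replicate 1 (up to 0.059). The dimmest of the 3 MAFF probes gave -0.37, and a second TCP11L2 probe gave 0.41.

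The largest falls were those of P2RY2 and EDN2, and RGS2 is described with them as a regulator of receptor signaling. P2RY2 read 8.07, 8.03 and 8.33 with BYL719 and 6.25, 7.07 and 6.42 with the combination. The second combination array was the highest of the 3 and still almost a full log2 unit below the BYL719 arrays, and the log2 fold change was -1.56 ± 0.17 (SE, adjusted p = 3.1e-05), a 2.95-fold drop. Its levels under DMSO and GSK2334470 alone were 8.83 ± 0.16 and 8.17 ± 0.09 (SD, n = 3). EDN2, endothelin 2, read 8.56, 8.56 and 8.54 with BYL719 and 7.55, 7.01 and 6.91 with the combination (-1.40 ± 0.15, SE, adjusted p = 3.1e-05, 2.63-fold). RGS2, which shortens signaling by Gq-coupled receptors, read 8.34, 8.12 and 8.61 with BYL719 and 7.31, 7.57 and 7.27 with the combination (-0.97 ± 0.15, SE, adjusted p = 0.00073).

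A few other genes of G protein signaling were picked out after their values were seen, and they do not stand for a group. P2RY6, a receptor for UDP, fell by 0.57 on the log2 scale (adjusted p = 0.0062), the adenosine receptor ADORA2B by 0.34 (adjusted p = 0.017) and RGS19 by 0.37 (adjusted p = 0.028), whereas RASD1, a small GTPase, rose by 0.77 (adjusted p = 0.019). The calls of ADORA2B (without combination replicate 3 or BYL719 replicate 2 or 3, up to 0.11), RASD1 (without combination replicate 2 or 3 or BYL719 replicate 2 or 3, up to 0.078) and RGS19 (without any array but BYL719 replicate 2, up to 0.12) rested on single arrays.

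Transcription factors were found in both directions, and those that fell are described singly. MESP1, a mesoderm transcription factor, read 6.62, 6.57 and 5.98 with BYL719 and 5.34, 5.34 and 5.25 with the combination, where it was detected on 1 of 3 arrays (-1.08 ± 0.14, SE, adjusted p = 0.00013). SNAI2, the epithelial-mesenchymal transition factor SLUG, read 9.18, 9.16 and 9.14 with BYL719 and 8.51, 8.53 and 8.71 with the combination (-0.58 ± 0.11, SE, adjusted p = 0.0063), with -0.69 from a second probe. RARA, the retinoic acid receptor alpha, was chosen after its values were seen. It read 10.01, 10.28 and 10.3 with BYL719 and 9.44, 9.53 and 9.35 with the combination (-0.76 ± 0.09, SE, adjusted p = 0.00013). In these 3 genes the groups were separate. RCOR2, a corepressor subunit, was detected on all BYL719 arrays and on no combination array, and was at least 1.54-fold lower there (adjusted p = 0.0044).

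Genes of BMP and TGFβ signaling, chosen after their values were seen, went both ways. ID3, an inhibitor of bHLH factors induced by BMP, read 9.17, 9.39 and 9.4 with BYL719 and 8.84, 8.27 and 8.75 with the combination (-0.70 ± 0.13, SE, adjusted p = 0.0041). ID1 (-0.32, adjusted p = 0.047) and the pseudoreceptor BAMBI (-0.38, adjusted p = 0.011) were lower too, and SMAD3, a mediator of TGFβ (0.50, adjusted p = 0.025), and the SMAD corepressor TGIF1 (0.44, adjusted p = 0.014) were higher. ID3 kept its call without any 1 array. The others lost it without all 6 arrays in turn for ID1 (up to 0.17), without combination replicate 1 for BAMBI (0.056), without combination replicate 1 or 2 or BYL719 replicate 1 or 2 for SMAD3 (up to 0.15) and without combination replicate 1 or 2 or BYL719 replicate 1 for TGIF1 (up to 0.072).

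Other large falls were the probe annotated to MIR635 (-1.02), the antisense transcript KDM7A-DT (-0.96), the noncoding RNA NRAV (-0.89), the zinc finger gene ZNF354A (-0.86), RNF148 (-0.86), the pseudogene SLC26A10P (-0.85), the small noncoding RNA SNAR-A1 (-0.85), ABTB2 (-0.84), the p53-induced nuclease AEN (-0.83) and HAAO of the kynurenine pathway (-0.82), with adjusted p from 3.5e-05 for SLC26A10P to 0.048 for HAAO. SNAR-A1 belongs to a family of near-identical copies that its probe may not separate. A second AEN probe gave -0.17. RNF148 (detected on 2 of 3 BYL719 arrays), SLC26A10P and HAAO were not detected on any combination array, and their bounds were at least 1.24-fold, 1.20-fold and 1.36-fold lower. With no filter on detection, where a brighter probe stood for SLC26A10P, its value was -0.14 (adjusted p = 0.89). Leaving out single arrays cost MIR635 (combination replicate 2 or 3 or BYL719 replicate 1 or 2, adjusted p up to 0.16), KDM7A-DT (combination replicate 1 or 2 or BYL719 replicate 2 or 3, up to 0.15), ZNF354A (combination replicate 1 or BYL719 replicate 1 or 2, up to 0.11), NRAV (combination replicate 2 or BYL719 replicate 2, up to 0.051) and HAAO (any array but BYL719 replicate 2, up to 0.24) their calls.

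**Figure D2:**
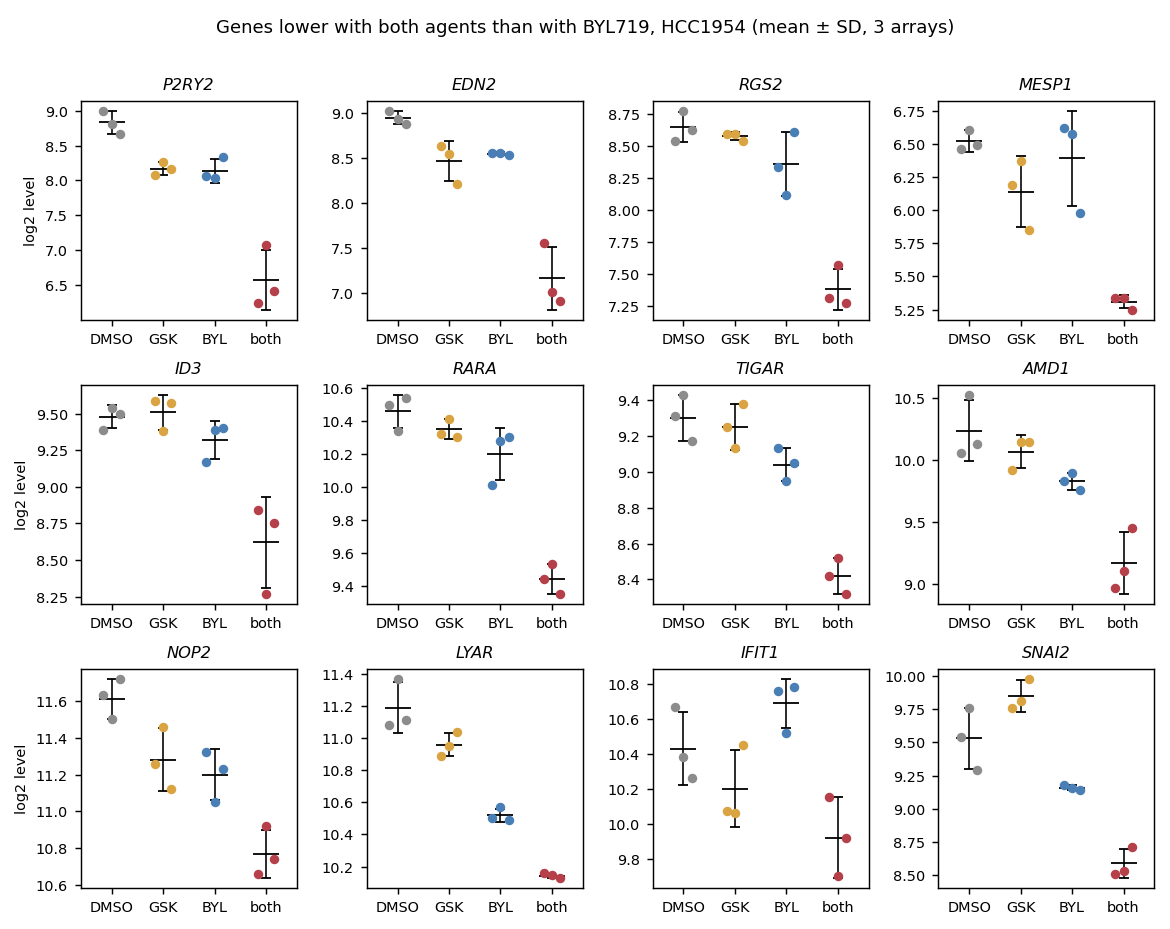
Log2 normalized level (y axis) of 12 genes that fell, on each HCC1954 array under DMSO, GSK2334470 (GSK), BYL719 (BYL) or both agents, with the mean and SD of 3 arrays as bars. The 3 arrays with both agents lie below the 3 BYL719 arrays in every panel, and the P2RY2 mean is 6.58 with both agents and 8.14 under BYL719.

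Ribosome biogenesis had 73 of 78 listed genes measured, of which 6 fell (8.22%, beside 1.32% of all genes), 0 rose and 67 did not pass, with a median of -0.10 and 11 values above 0. The 6 were NOP2, an rRNA methyltransferase (-0.43, adjusted p = 0.032), the box C/D snoRNP core protein NOP56 (-0.39, adjusted p = 0.049), POLR1C, a subunit of RNA polymerases I and III (-0.38, adjusted p = 0.021), LYAR (-0.38, adjusted p = 0.027), MRTO4 (-0.38, adjusted p = 0.039) and BRIX1 (-0.36, adjusted p = 0.041), the last 2 being large-subunit assembly factors. LYAR, a nucleolar protein, read 10.5, 10.57 and 10.49 with BYL719 and 10.16, 10.15 and 10.13 with the combination. NOP2 read 11.32, 11.05 and 11.23 with BYL719 and 10.66, 10.92 and 10.74 with the combination, so these sizes are small beside those of P2RY2 or EDN2, and the arrays were nevertheless apart. All 6 genes lost the call without combination replicate 1 and without BYL719 replicate 1 (adjusted p up to 0.25 for NOP56). The count was 0 without either of these arrays and 1 to 4 without any other of the 6. It was also 0 with median scaling, with normalization over the HCC1954 arrays, and when the HCC1954 arrays or the 6 arrays compared were fitted alone. With array weights it was 11. Ribosomal protein genes had 0 of 33 called.

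Metabolic genes moved little as groups. In MYC, MAX and polyamine synthesis, AMD1, which makes the aminopropyl donor for polyamines, read 9.83, 9.9 and 9.76 with BYL719 and 8.97, 9.1 and 9.45 with the combination (-0.65 ± 0.14, SE, adjusted p = 0.011), while SAT1, which acetylates polyamines for export and breakdown (0.40, adjusted p = 0.011), and the MAX partner MNT (0.42, adjusted p = 0.013) rose. These were 3 of 22 measured genes, with 9.09% rising and 4.55% falling, beside 1.41% and 1.32% of all genes. Without single arrays the calls of AMD1 (combination replicate 1 or 2 or BYL719 replicate 2, up to 0.074), SAT1 (combination replicate 2 or BYL719 replicate 2, up to 0.070) and MNT (combination replicate 2 or BYL719 replicate 1 or 3, up to 0.082) were lost. In glycolysis and HIF1 targets 2 of 37 fell (5.41%, beside 1.32% of all genes), PFKFB4, which sets the level of a glycolytic activator (-0.50, adjusted p = 0.0041), and the peptide hormone adrenomedullin (ADM, -0.49, adjusted p = 0.011, lost without BYL719 replicate 1 at 0.062). Sterol and fatty acid synthesis had 0 of 31 called, and ATF4 targets had 1 rise (ATF3) and 1 fall (CEBPB, -0.28, adjusted p = 0.035, lost without any of the 6 arrays, up to 0.12) among 38 (2.63% each, beside 1.41% and 1.32% of all genes).

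A few enzymes named after their values were seen belong to purine and methionine metabolism. MAT2A, which makes S-adenosylmethionine, read 11.78, 11.88 and 12.15 with BYL719 and 11.46, 11.16 and 11.39 with the combination (-0.60 ± 0.11, SE, adjusted p = 0.0036). PPAT, the first committed enzyme of purine synthesis (-0.42, adjusted p = 0.027), and PNP, a purine salvage enzyme (-0.39, adjusted p = 0.0096), fell as well, with calls lost without any array but BYL719 replicate 1 for PPAT (up to 0.15) and without combination replicate 2 for PNP (0.054).

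Among p53 targets 2 rose and 2 fell of 22 measured (9.09% each, beside 1.41% and 1.32% of all genes). GDF15, a stress-induced cytokine, read 11.93, 11.82 and 11.78 with BYL719 and 12.7, 12.63 and 12.59 with the combination (0.80 ± 0.09, SE, adjusted p = 3.1e-05), and TP53INP1 was the other rise. TIGAR, which lowers glycolytic flux, read 9.13, 8.95 and 9.05 with BYL719 and 8.42, 8.52 and 8.32 with the combination (-0.62 ± 0.09, SE, adjusted p = 0.00064), and AEN was the other fall. F-box and Kelch ubiquitin ligase adaptors had 5 of 44 rising (11.4%, beside 1.41% of all genes) and 0 falling, with a median of 0.02. The rises included FBXO33 (0.62, adjusted p = 0.0033) and FBXL20 (0.51, adjusted p = 0.011, lost without combination replicate 1 or BYL719 replicate 2, up to 0.060). LFNG, a glycosyltransferase that modifies Notch, read 8.11, 8.12 and 7.98 with BYL719 and 9.06, 8.93 and 8.88 with the combination (0.89 ± 0.10, SE, adjusted p = 8.4e-05). It was the single call among 26 measured Notch signaling genes (3.85%, beside 1.41% of all genes rising).

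Interferon-stimulated genes had the lowest median of the lists, -0.20 over 35 measured genes with 4 values above 0 (11.4%, beside 46.5% of all genes). By the test 1 fell and 1 rose (2.86% each, beside 1.32% and 1.41% of all genes). BYL719 alone against DMSO had a list median of 0.19, beside 0.01 over all genes, and it shares the BYL719 arrays with the added effect. GSK2334470 alone against DMSO, which shares no array with it, had a list median of -0.16, beside 0.01 over all genes. For the same addition in JIMT1 the list median was 0, beside 0.03. IFIT1, which binds foreign RNA, read 10.76, 10.52 and 10.78 with BYL719 and 10.15, 9.7 and 9.92 with the combination (-0.76 ± 0.15, SE, adjusted p = 0.0064), and the guanylate-binding protein GBP2 rose by 0.42 (adjusted p = 0.007). CXCL8, the neutrophil chemokine, rose by 0.67 (adjusted p = 0.0049), from 11.48 ± 0.09 to 12.15 ± 0.13 (SD, n = 3), beside 12.29 ± 0.14 under DMSO, and the monocyte chemokine CCL2 fell by 0.37 (adjusted p = 0.037, lost without any array but combination replicate 1, up to 0.20). These were the 2 calls among 28 NF-kB targets and cytokines (3.57% in each direction, beside 1.41% and 1.32% of all genes). Autophagy and lysosome genes had 3 of 45 rising (6.67%, beside 1.41% of all genes), ATG14 (0.43, adjusted p = 0.007) and GABARAPL1 of the autophagosome and RB1CC1 of its initiating complex (0.35, adjusted p = 0.027, lost without combination replicate 1 or 3 or BYL719 replicate 1 or 3, up to 0.14). The unfolded protein response had CREBRF alone of 25 (4%, beside 1.41% of all genes rising). The single calls of 2 more lists were TP53INP1 among 31 cell death regulators (3.23%, beside 1.41% of all genes rising), and PPRC1, a PGC-1-related coactivator (-0.50, adjusted p = 0.007), among 34 mitochondrial genes (2.94%, beside 1.32% of all genes falling). Heat shock proteins had 0 of 20 called. Of 15 measured genes in the longer luminal list 0 were called. Of 11 in the longer basal list 1 fell (9.09%, beside 1.32% of all genes), SFN (-0.31, adjusted p = 0.021, lost without combination replicate 2 or 3 or BYL719 replicate 2 or 3, up to 0.090).

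**Figure D3:**
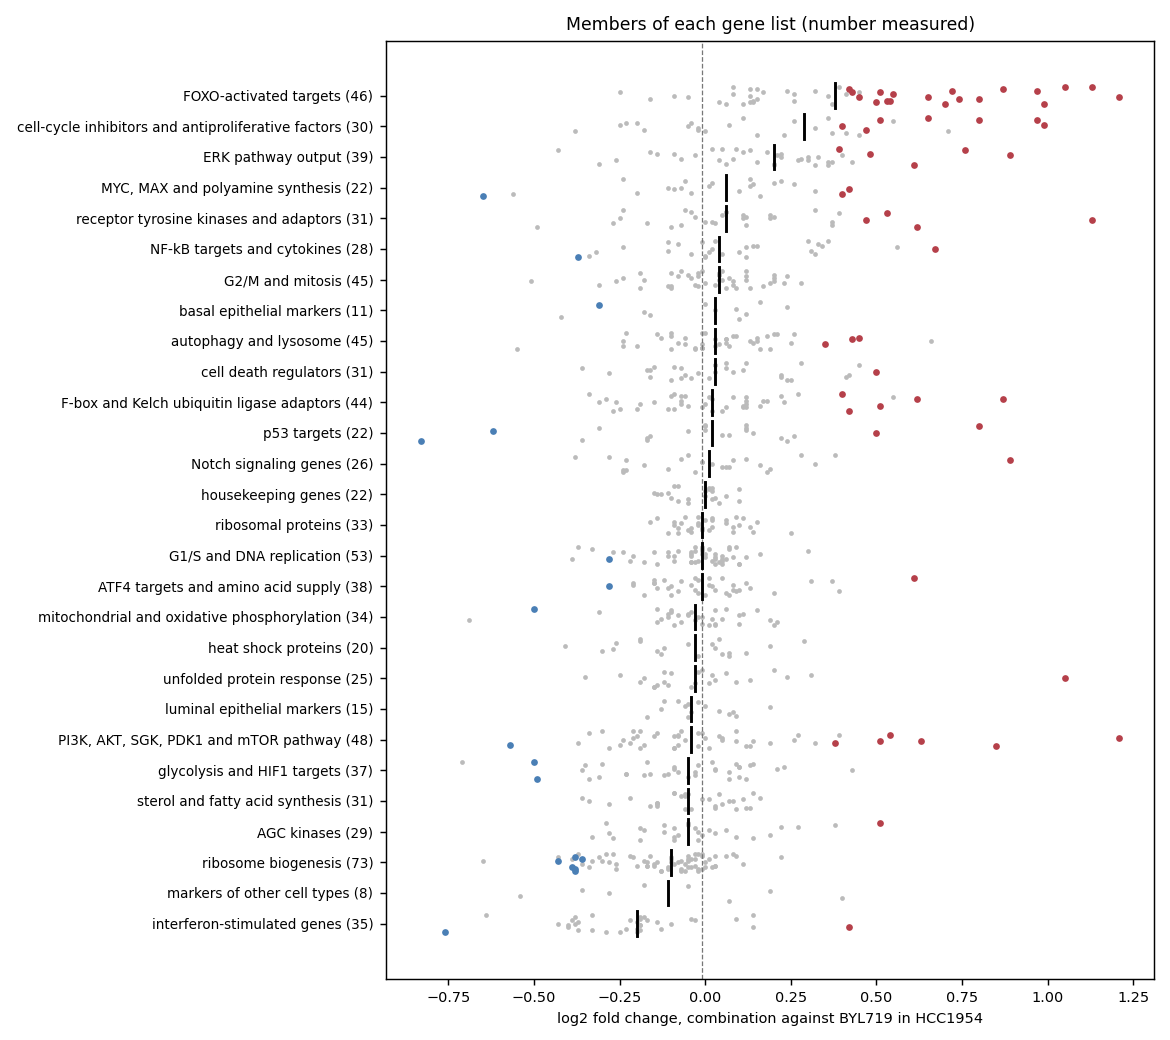
Log2 fold change of the combination against BYL719 in HCC1954 (x axis) for every measured member of 28 gene lists (y axis, number measured in parentheses). Red points rose and blue points fell past the test, gray points did not pass, black bars are list medians and the dashed line is the median of all genes at -0.01. The FOXO-activated targets have the highest median, 0.38, and the interferon-stimulated genes the lowest, -0.20.

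The added effect was set beside the effect of GSK2334470 alone against DMSO in HCC1954, a comparison that shares no array with it. GSK2334470 alone changed 1 of 12109 genes by the same test, YPEL1, which rose by 1.11 ± 0.12 (SE, adjusted p = 0.00015). By an unadjusted p below 0.05 it had 1675 genes, and the added effect had 1733. YPEL1, a nuclear protein of the yippee family, was not detected on the DMSO arrays, so that the value of 1.11 is set against a background level. It read 6.17, 6.25 and 6.32 with GSK2334470, 6.69, 6.57 and 6.63 with BYL719 and 7.64, 7.57 and 7.64 with both.

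The called genes were selected for a large added effect, so a smaller value in another comparison is partly fixed by that choice. As a description without a test, of the 171 genes that rose 149 had a value above 0 (87.1%, beside 53.2% of all genes tested), with a median of 0.21 against 0.55 for the added effect. Of the 160 that fell, 120 had a value below 0 (75%, beside 46.8% of all genes), with a median of -0.15 against -0.51. Over all 12109 genes, which are not independent replicates, the log2 fold changes correlated at r = 0.29 (Spearman's rho 0.30). For the FOXO-activated targets the median was 0.11 under GSK2334470 alone. YPEL1 was the 1 member of the list called there, and PIK3IP1 (0.21, adjusted p = 0.69), IRS2 (0.18, adjusted p = 0.62) and HBP1 (0.51, adjusted p = 0.089) did not pass.

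The difference between both effects was tested as an interaction. It was called for 4 of 12109 genes (0.033%), with 959 at an unadjusted p below 0.05. STON1 rose with the combination and not with GSK2334470 alone (added effect 1.15, alone -0.18, difference 1.33 ± 0.23, SE, adjusted p = 0.044). SNAI2 (added effect -0.58, alone 0.32, difference -0.90 ± 0.16, adjusted p = 0.046), LIAT1 (-0.68, 0.33 and -1.01 ± 0.17, adjusted p = 0.044) and SLC26A10P (-0.85, 0.14 and -0.99 ± 0.13, adjusted p = 0.0036) had negative differences. STON1 was detected on none of the GSK2334470 arrays and 1 each of the DMSO and BYL719 arrays, SLC26A10P was detected only on BYL719 arrays of HCC1954 and had an added effect of -0.14 with no filter on detection, and a second LIAT1 probe gave -0.15 for the added effect. For none of the FOXO-activated targets was the interaction called, including PIK3IP1 (1.00, adjusted p = 0.27) and IRS2 (0.95, adjusted p = 0.13). The interaction's count was 1 to 15 when any 1 of the 12 HCC1954 arrays was left out (15 without DMSO replicate 2, 1 without combination replicate 1, BYL719 replicate 1 or 2, DMSO replicate 1 or 3 or GSK2334470 replicate 3, and 2 without combination replicate 3 or GSK2334470 replicate 1) and 0 with the authors' processed values.

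**Figure D4:**
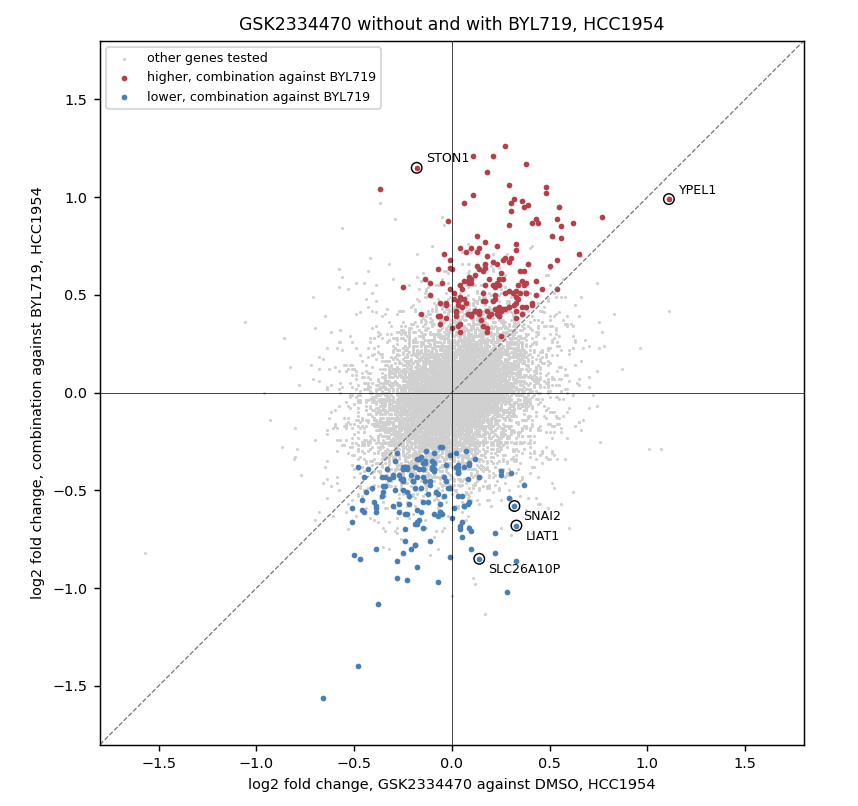
Each gene's log2 fold change for GSK2334470 against DMSO (x axis) and for the combination against BYL719 (y axis) in HCC1954, with the dashed line marking equal values. Genes called for the combination against BYL719 are red or blue, and circles mark YPEL1, the 1 gene called for GSK2334470 alone, and the 4 genes called for the interaction.

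The same addition in JIMT1 called 92 genes higher (0.76%) and 51 lower (0.421%). Of the genes that rose in HCC1954 27 also rose in JIMT1, which is 15.8% of the HCC1954 rises and 29.3% of the JIMT1 rises. They included ARID5B, CITED2, CREBRF, DEPP1, FBXO32, HBP1, IRS2, TXNIP, LFNG, PIM1, ERRFI1 and SGK1. Of the falls 12 were shared, 7.5% of those in HCC1954 and 23.5% of those in JIMT1, including ID1, ID3, BAMBI, LYAR, ADM and PFKFB4. A single gene that fell in HCC1954, EPHB6, rose in JIMT1. By sign alone, 135 of the 171 rises (78.9%, beside 56.2% of all genes) and 118 of the 160 falls (73.8%, beside 43.8%) went the same way in JIMT1, with medians of 0.13 and -0.10 there, and r over all genes was 0.12 (Spearman's rho 0.10).

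SGK1 rose by 0.75 ± 0.09 (SE, adjusted p = 0.00012) in JIMT1 beside 0.51 in HCC1954, PIM1 by 0.81 beside 0.96 and IRS2 by 0.64 beside 1.13, and the difference between lines was not called for any of them (adjusted p = 0.47, 0.68 and 0.35). The difference was called for 18 genes (0.149%), 10 positive and 8 negative, with 1407 at an unadjusted p below 0.05. With the authors' processed values 12 were called, 4 positive and 8 negative. EDN2 fell in HCC1954 and had a value of 0.41 in JIMT1, at mean levels of 4.82 with BYL719 and 5.23 with the combination (difference -1.81 ± 0.21, SE, adjusted p = 5e-04). PRDM1 (added effect 1.26 in HCC1954 and 0.02 in JIMT1), PDE4B (1.17 and -0.12), RGCC (0.99 and -0.21), YPEL1 (0.99 and -0.06), SOX17 (0.95 and 0.01) and GDF15 (0.80 and 0.04) had positive differences. PDE4B, YPEL1, SOX17 and GDF15 were detected on none of the 6 JIMT1 arrays and RGCC and EDN2 on 1, so for these no fold is available in JIMT1 and the difference is set against a background level there, whereas PRDM1 was detected on all 6. SOX17, an endoderm and endothelial transcription factor, was detected on all combination arrays and on no BYL719 array of HCC1954 and was at least 1.40-fold higher.

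TENT5A, a noncanonical poly(A) polymerase, fell by 0.66 in HCC1954 (9.46, 9.52 and 9.49 with BYL719, 8.82, 8.98 and 8.68 with the combination, adjusted p = 0.00084) and had a value of 0.36 in JIMT1 (adjusted p = 0.097, difference -1.02 ± 0.14, SE, adjusted p = 0.0028). The kinase-dead receptor EPHB6 (-0.41 in HCC1954, 0.51 in JIMT1, difference -0.92, adjusted p = 0.011) was called in opposite directions in the lines, though its HCC1954 call was lost without any array but BYL719 replicate 3 (up to 0.19). C1orf74 (-0.61 and 0.18, difference -0.79, adjusted p = 0.013) and the zinc finger gene ZNF75A (-0.39, not called, and 0.45, difference -0.84, adjusted p = 0.022) also had negative differences. ACKR3, an atypical chemokine receptor, was detected on none of the HCC1954 arrays and fell by 1.01 on the log2 scale in JIMT1 (adjusted p = 5.8e-05). The count of 18 was 10 to 21 when any 1 of the 12 arrays of the 4 groups was left out, with 10 without JIMT1 combination replicate 2.

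**Figure D5:**
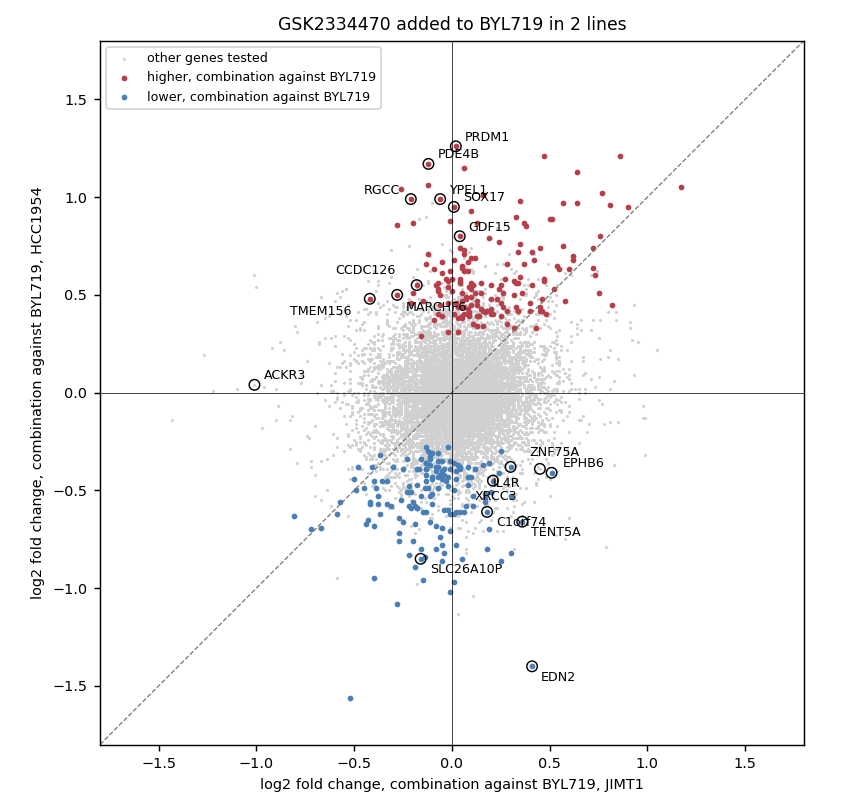
Each gene's log2 fold change for the combination against BYL719 in JIMT1 (x axis) and in HCC1954 (y axis), with the dashed line marking equal values. Genes called in HCC1954 are red or blue and circles mark the 18 genes whose difference between the lines was called, such as TENT5A at 0.36 in JIMT1 and -0.66 in HCC1954.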

How the data were processed

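Total RNA of HCC1954 and JIMT1 cells was hybridised to Illumina HT-12 arrays, 3 in each of 8 groups. The authors deposited mean bead intensity, neither background-subtracted nor normalized, with a detection p-value and a number of beads per probe (median 17 to 20). GenomeStudio is named in the submitters' processing notes without a version. Bead standard errors (24 columns) were left aside. Processed intensities that the authors deposited (method unstated, medians 14.1 to 14.2, 28% below 0) served as an alternative, after adding 16, with a floor of 1.

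Intensities were background-corrected with limma 3.58.1 in R 4.3.3 (neqc from the detection p-values, offset 16, which understates changes of dim genes), put on a log2 scale and quantile normalized over 24 arrays. A probe was kept if its detection p-value was below 0.05 on each of the 3 arrays of some group (21256 of 47323, 16345 with 1 gene symbol), and the brightest probe stood for each of 12109 genes. The platform annotation gave 1 symbol to 30113 probes, several to 8 and none to 17202, and gene IDs matched 30074 of these to RefSeq (GRCh38.p14) with 0 symbols changed. Comparisons were contrasts of 8 group means in 1 limma model (16 residual degrees of freedom, 3.92 prior), with p-values adjusted by Benjamini-Hochberg over 12109 genes at a threshold of 0.05. P-values measure the spread between arrays, whose number limits the precision. The script was tested on simulated data. Where a gene was detected in just 1 of the BYL719 and combination groups of HCC1954, a bound on the fold was computed. The log2 value of such a gene, by which it was also ranked, is then no measure of size. The bound sets the bright group's mean against the dim group's mean of, per array, the higher of the lowest level among detected probes and the gene's own.

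The genes named are the 15 largest rises and falls past the threshold with non-overlapping arrays, the 4 called members of each of 28 gene lists with the smallest adjusted p, pathway genes the study names, and the 5 largest called differences of each sign in the interaction (added effect minus effect of GSK2334470 alone) and between lines. Genes outside this rule were chosen after their values were seen and are marked so, apart from FNIP2, SESN3, TSC1, PDK4, YPEL3, YPEL5, SPRED2, NOP56 and BRIX1, the uncalled list members named, the genes named for a promoter motif, the genes common to both lines and the other line differences. The comparison and all lists were chosen with earlier results of these data known. Same-numbered BYL719 and combination arrays did not deviate together (r of 0, 0.01 and -0.03), and no slide or batch is given in the sources used here. Alternatives in normalization, filter, fit and probe choice were tried.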

Additional observations from a re-analysis of the deposited data

Results flagged for a closer look

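Differences between groups in the effect of GSK2334470 were called for 22 comparisons of a gene, each by a test of the difference itself. For 4 genes the effect with BYL719 differed from the effect without it in HCC1954: SLC26A10P (-0.99), STON1 (1.33), LIAT1 (-1.01) and SNAI2 (-0.90), on the log2 scale. For 18 genes the effect of adding GSK2334470 to BYL719 differed between HCC1954 and JIMT1. It was higher in HCC1954 for ACKR3 (1.05), RGCC (1.20), GDF15 (0.75), YPEL1 (1.04), MARCHF6 (0.78), SOX17 (0.94), TMEM156 (0.90), PRDM1 (1.24), PDE4B (1.29) and CCDC126 (0.73). It was lower in HCC1954 for EDN2 (-1.81), TENT5A (-1.02), EPHB6 (-0.92), C1orf74 (-0.79), ZNF75A (-0.84), SLC26A10P (-0.70), IL4R (-0.69) and XRCC3 (-0.67). The ubiquitin ligase gene MARCHF6 had a second probe with an added effect of 0.06 in HCC1954, beside 0.50 from the probe used. Several of these differences are set against a level not above background and are no measure of size: ACKR3 was detected on none of the HCC1954 arrays, PDE4B, YPEL1, SOX17, GDF15 and SLC26A10P on none of the 6 JIMT1 arrays compared, and EDN2 and RGCC on 1 of them. SLC26A10P appears in both comparisons and was detected on the BYL719 arrays of HCC1954 and on no array of its DMSO, GSK2334470 and combination groups, and STON1 was detected on none of the GSK2334470 arrays and on 1 DMSO array.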

How the results depend on the processing

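The count of 331 genes was 30 with median scaling, 188 with normalization over the HCC1954 arrays, 176 and 46 when the HCC1954 arrays or the 6 arrays compared were fitted alone, 14 by the methods' t-test after Benjamini-Hochberg adjustment (1546 at an unadjusted p below 0.05), and 198 to 228 without any 1 array. It fell by over 1.5 times without combination replicate 1 (198) or 3 (220) or BYL719 replicate 2 (199) or 3 (202). With median scaling the median standard error was 0.19 in place of 0.13, and the median of all genes was -0.07 in place of -0.01. The causes of the shifts in the count were not tested. The replicate numbers only name arrays, and with the number as a replicate block the counts were 286, 3 for the interaction and 14 for the line difference. The interaction count of 4 was 0 with the authors' processed values, median scaling, normalization or fitting on HCC1954 arrays, and no detection filter, 1 with a variance trend or the mean of all probes, 10 with array weights, and 1 to 15 without any 1 array. With median scaling the median of all genes moved from -0.03 to -0.18 for the interaction. The line difference count of 18 was 1 with median scaling, 32 with an offset of 50, 11 without a detection filter, 34 with a variance trend, 56 with array weights, and 10 to 21 without any 1 array. Of 120 named genes that were called, 14 kept the call in every alternative apart from the t-test, and 0 reversed. The 14 were PRDM1, PIK3IP1, DEPP1, IRS2, RGCC, DUSP6, PIM1, RNF39, P2RY2, EDN2, RCOR2, SNAR-A1, ABTB2 and RARA. By the methods' t-test after Benjamini-Hochberg adjustment 115 of the 120 lost the call, and of the 14 DEPP1 alone kept it. Among uncalled genes SGK3 turned to -0.05 and -0.16 and FOXO3 to -0.03 and -0.10 with median scaling and the mean of all probes, and without any 1 array the values ranged from -0.08 to 0.09 for SGK3, -0.03 to 0.09 for FOXO3, -0.06 to 0.07 for MTOR and -0.22 to 0.01 for NDRG1.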
